A study of Mus musculus with 4 samples.

Results

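The cadherin and claudin genes measured here are 46 of the 22180 genes tested, 23 of each family. They were taken as every row of the deposited array table whose 1 gene symbol was Cdh or Cldn followed by digits only, and where a gene had several rows the one with the highest mean was kept. The study set 2 arrays of BR5FVB1-Akt cells given 10 uM decitabine for 72 h against 2 arrays of the same cells without it. BR5FVB1-Akt is a mouse line that the labels call ovarian cancer, grown in serum-containing medium. The titles call the 2 arrays of each group biological replicates. The labels do not give the genotype of the line or say how these replicates were cultured. The limma p-values set each difference against the spread of these 4 arrays within their groups, combined with the spread seen over all genes. How much of this spread lies between separate cultures is not known. Decitabine is a cytidine analogue that traps DNA methyltransferases on replicating DNA and so lowers DNA methylation. All values are Affymetrix Mouse Gene 2.0 ST levels read as log2 expression, and fold changes are decitabine over control.

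Cadherins are calcium-dependent adhesion proteins that join neighbouring cells. The classical types I and II bind beta-catenin and p120-catenin through their tails and so connect to actin at adherens junctions. Claudins span the membrane at tight junctions, where some members seal the space between epithelial cells and others line pores for selected ions. Epithelia of many organs carry E-cadherin, whereas the ovarian surface epithelium is known for N-cadherin and little E-cadherin. E-cadherin (Cdh1) is a known target of promoter methylation in cancers. The label "classical" does not cover all members. Cdh13, which is anchored by a lipid and has no cytoplasmic tail, Cdh16, Cdh17, the hair-cell protein gene Cdh23 and Cdh26 are usually placed outside types I and II.

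The arrays came with no detection calls, so the dim end was set by 1088 olfactory receptor genes, which a cultured ovarian cancer line is not expected to use. Their 95th percentile, called the olfactory level below, was 4.47 and 4.68 on the decitabine arrays and 4.53 and 4.59 on the control arrays. Rows differ in their probes, so levels of different genes are given side by side and not tested against each other. In control cells 18 of the 46 genes, or 39.1%, lay above the olfactory level on both arrays, against 59.3% of all genes tested. On the decitabine arrays 17 did so, against 59.1% of all genes. These were the same genes as in control apart from Cdh4. With vomeronasal receptor genes in place of the olfactory ones 23 members lay above the 95th percentile in control, and without the second control array 20 lay above the olfactory level. With a stricter mark at the 99th percentile of the olfactory receptor genes, 9 of the 18 stayed above it in control, 4 cadherins and 5 claudins. The 4 cadherins were Cdh2, Cdh3, Cdh11 and Cdh24, and the 5 claudins were Cldn3, Cldn11, Cldn12, Cldn15 and Cldn19.

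**Figure D1:**
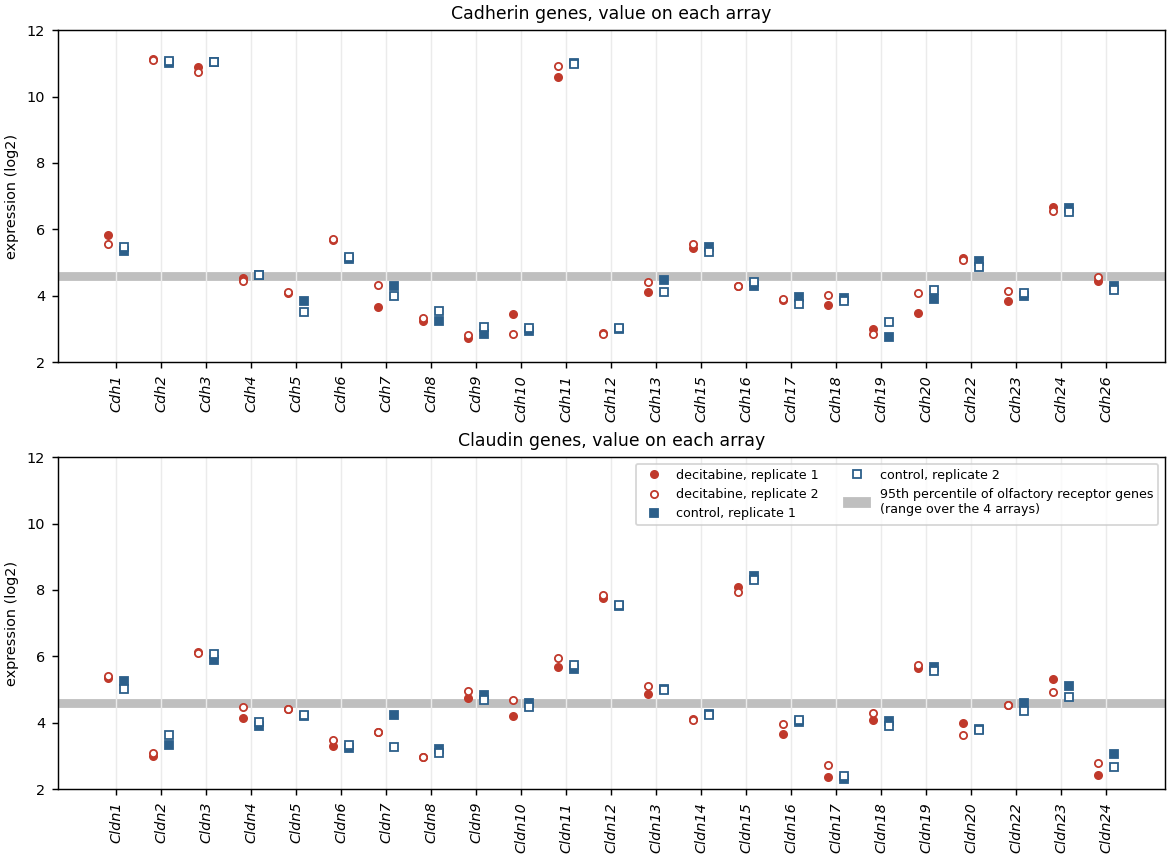
Expression (log2) of the 23 cadherin genes (upper panel) and the 23 claudin genes (lower panel) on each array, decitabine as circles and control as squares, with the range of the olfactory level over the 4 arrays as a grey band. Cdh2, Cdh3 and Cdh11 lie between 10.598 and 11.12 on all 4 arrays, Cldn12 and Cldn15 between 7.51 and 8.42, and 28 genes were not above the olfactory level on both arrays of either group.

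The rows farthest above the olfactory level were those of N-cadherin, P-cadherin and a mesenchymal cadherin. Cdh2 (N-cadherin), Cdh3 (P-cadherin) and Cdh11, a type II cadherin of mesenchymal cells, were the 3 members whose control level was in the top 1% of all genes. Cdh2 had values of 11.12 and 11.11 on the decitabine arrays, against 11.02 and 11.07 on the control arrays. Cdh3 had 10.89 and 10.75 with decitabine, against 11.05 and 11.03 in control. Cdh11 had 10.598 and 10.93 with decitabine, against 11.03 and 10.98 in control. For Cdh2 both decitabine arrays were the higher ones, and for Cdh3 and Cdh11 both were the lower ones. A second row annotated to Cdh2 had 9.40 and 9.30 with decitabine, against 9.22 and 9.44 in control, and there the groups overlapped.

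Cdh1, which holds epithelial sheets together, had 5.83 and 5.57 on the decitabine arrays, against 5.34 and 5.45 on the control arrays. It lay above the olfactory level on every array and below the stricter 99th percentile mark in control. A second row annotated to Cdh1 had 3.41 and 3.23 with decitabine, against 3.25 and 3.43 in control, all under the olfactory level. Of 15 epithelial markers measured, Cdh1 included, 10 were above the olfactory level in control, where 59.3% of all genes were. The simple-epithelium keratin genes Krt18 and Krt8 averaged 9.56 and 7.80 with decitabine, against 9.24 and 7.27 in control. The adhesion gene Epcam, at 4.88 with decitabine and 4.65 in control, was close to the olfactory level. The mesothelial gene Upk3b, at 11.77 with decitabine and 11.96 in control, and the transcription factor gene Wt1, at 10.54 with decitabine and 10.82 in control, were bright. Both are known markers of ovarian surface and mesothelial cells. Of 10 such markers measured, 8 were above the olfactory level in control and 7 on the decitabine arrays. Pax8 and Lgr5 were above it in neither group. All 13 mesenchymal markers measured, Cdh2 included, were above the olfactory level in control.

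Among the other type I genes, Cdh15 (M-cadherin, of muscle) had 5.42 and 5.56 with decitabine, against 5.46 and 5.32 in control. Cdh4 (R-cadherin, of retina and brain) had 4.54 and 4.45 with decitabine, against 4.63 and 4.61 in control, where it was only 0.02 above the olfactory level at its closer array. Its second row ran the other way, with 4.44 and 4.59 with decitabine, against 4.14 and 4.36 in control. Cdh15 was at least 0.74 above the olfactory level in control. Of the 13 type II genes, 4 were above the olfactory level in control, namely Cdh6, Cdh11, Cdh22 and Cdh24. Cdh24, whose product is known to bind catenins, had 6.69 and 6.56 with decitabine, against 6.64 and 6.52 in control. Cdh22, a cadherin of brain, had 5.13 and 5.09 with decitabine, against 5.04 and 4.86 in control. None of the 5 cadherins outside types I and II was above it. The 14 cadherins not above the olfactory level on both arrays of either group had values between 2.72 and 4.56.

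Among the claudins, the rows farthest above the olfactory level were those of Cldn15 and Cldn12. Cldn15, a cation pore of the intestine, had 8.10 and 7.93 with decitabine, against 8.42 and 8.29 in control. Cldn12, which unlike most claudins lacks the tail motif that binds scaffold proteins such as ZO-1, had 7.77 and 7.85 with decitabine, against 7.51 and 7.55 in control. For each of these genes the groups did not overlap, with Cldn15 lower and Cldn12 higher on the decitabine arrays. Of 12 claudins usually described as sealing, 5 were above the olfactory level in control. Cldn3, a barrier claudin of many epithelia, had 6.14 and 6.09 with decitabine, against 5.90 and 6.06 in control. Cldn1, needed for the barrier of the epidermis, had 5.36 and 5.40 with decitabine, against 5.27 and 5.02 in control. In both of them the decitabine arrays were the higher ones, and in Cldn1 the group means differed by 0.23, less than the gap between its control arrays.

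Cldn11, of myelin and Sertoli cells, had 5.68 and 5.95 with decitabine, against 5.61 and 5.73 in control. Cldn19, of kidney and Schwann cells, had 5.63 and 5.75 with decitabine, against 5.67 and 5.54 in control. Cldn9, of the inner ear, had 4.73 and 4.94 with decitabine, against 4.84 and 4.68 in control, 0.10 above the olfactory level at its closer control array. In these 3 genes the groups overlapped. Of the claudins whose barrier role is less settled, Cldn23 had 5.31 and 4.92 with decitabine, against 5.11 and 4.76 in control. Cldn13, which is found in rodents, had 4.86 and 5.11 with decitabine, against 5.002 and 4.97 in control. In both genes, too, the groups overlapped. Cldn4, a barrier claudin often abundant in ovarian carcinoma, was under the olfactory level in both groups, with 4.13 and 4.47 with decitabine, against 3.90 and 4.01 in control. Cldn5 and Cldn7 were under it as well, and Cldn10 missed it by 0.11 at its lower control array. The 14 claudins not above the level on both arrays of either group had values between 2.30 and 4.70.

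The design's comparison asks how each gene differed after decitabine. No cadherin or claudin passed the test. In limma with Benjamini-Hochberg adjustment over all genes, 0 of the 46 had an adjusted p under 0.05, against 0.144% of all genes tested, and the smallest adjusted p among them was 0.137, for Cdh6. At a raw p below 0.05, before adjustment, 5 members differed, or 10.9%, against 14.3% of all genes. Of these 3 were higher, 6.52% against 7.34% of all genes, and 2 lower, 4.35% against 6.97%, so the shares were not above the background. The median log2 fold change was 0.02 over the members and 0.00 over all genes. The members' values ran from -0.44 to 0.56, with 24 positive and 22 negative. In 12 members both decitabine arrays were above both control arrays, 26.1% against 23.4% of all genes, and in 10 both were below, 21.7% against 22.5%.

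The data bounded the changes. The 95% confidence interval of each of the 46 members lay within a 2-fold difference in either direction, and that of 32 members within a 1.5-fold difference. Of all 22180 genes tested, 21301 had an interval within a 2-fold difference, so this bound is not particular to the members. The 1.5-fold count was not taken over all genes. The lowest bound among the members was a log2 fold change of -0.85 and the highest 0.81. The bounds hold for array signal, and for genes not above the olfactory level the signal need not follow the RNA. In bulk RNA from a culture, fewer cells that use a gene and less RNA per cell cannot be told apart.

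**Figure D2:**
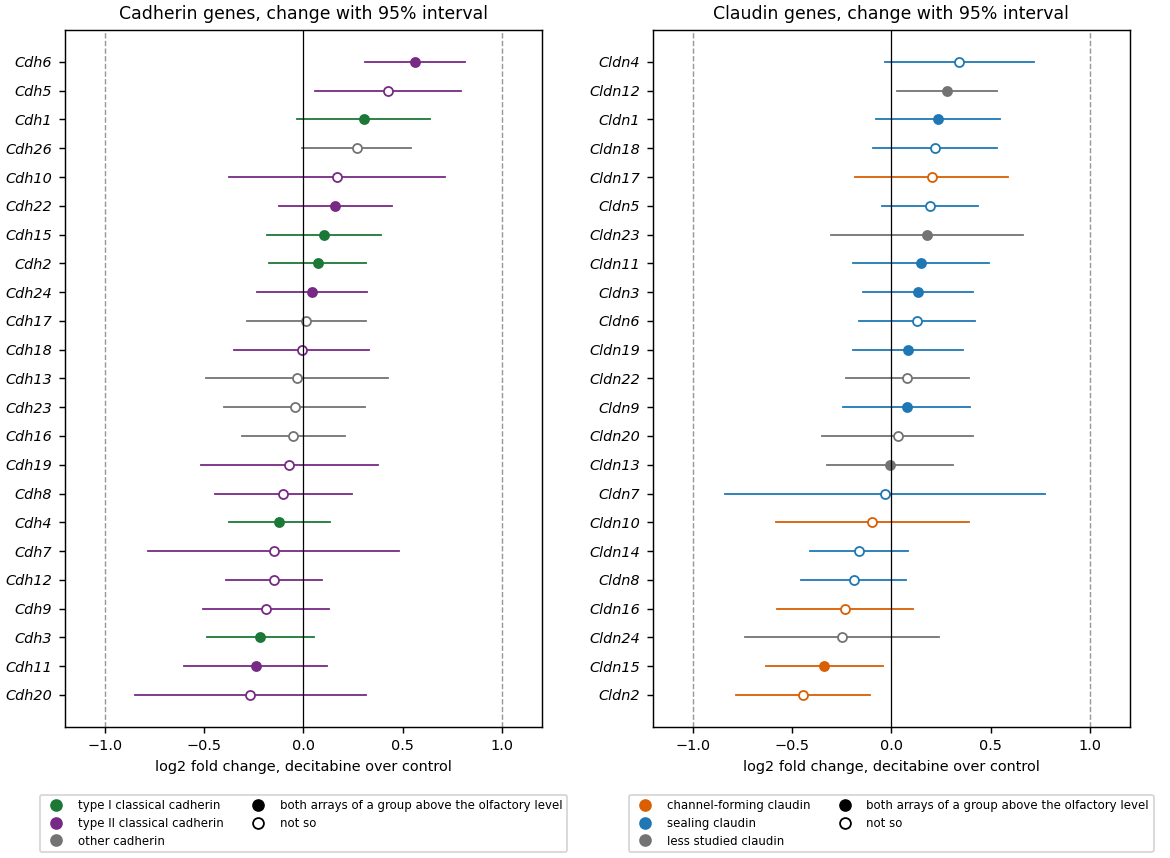
Log2 fold change of each gene, decitabine over control, with its 95% confidence interval from limma without an intensity trend, cadherins on the left and claudins on the right, coloured by role and filled where both arrays of a group were above the olfactory level. Every interval lies between the dashed lines at a 2-fold difference, and the intervals of Cdh6, Cdh5, Cldn12, Cldn15 and Cldn2 do not include 0.

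Cdh6, a type II cadherin of developing kidney and brain that is also known from ovarian carcinoma, had the members' largest difference. Its values were 5.69 and 5.72 on the decitabine arrays, against 5.10 and 5.18 on the control arrays. The groups did not overlap and the log2 fold change was 0.56 ± 0.10 (limma SE, 2 arrays in each group), a 1.48-fold difference, with an adjusted p of 0.137 in limma. With an intensity trend in limma's variance model Cdh6 was called higher (adjusted p = 0.0342), and over all alternatives its adjusted p ranged from 0.0128 to 0.576. Without any 1 array its log2 fold change stayed between 0.52 and 0.60.

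Cldn15 had the largest difference downward among members above the olfactory level, with a log2 fold change of -0.34 ± 0.11 (limma SE) and an adjusted p of 0.304 in limma. Its level was 8.01 ± 0.12 with decitabine and 8.35 ± 0.09 in control (SD, n = 2 each). Cldn12 had a log2 fold change of 0.28 ± 0.10 and an adjusted p of 0.317. Cldn2, a pore for cations and water in the kidney tubule, was at -0.44 ± 0.13 with an adjusted p of 0.254. All 4 values of Cldn2, 3.002 and 3.08 with decitabine, against 3.34 and 3.62 in control, were under the olfactory level. With the intensity trend Cldn15 was called lower (adjusted p = 0.0410, from 0.0410 to 0.674 over its alternatives), and Cldn12 and Cldn2 were not called (adjusted p = 0.0752 and 0.256).

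The intensity trend called 1 member higher, 2.17% of the 46 against 3.68% of all genes, and 2 lower, 4.35% against 3.60%. In both directions together it called 6.52% of the members and 7.28% of all genes. The third gene called was Cdh3. Its log2 fold change was -0.22 ± 0.11 with an adjusted p of 0.435 in the fit without the trend and 0.0487 with it, and its adjusted p ranged from 0.0487 to 0.722 over the alternatives. The fold difference was small, 1.16-fold higher in control. For Cdh11 the log2 fold change was -0.24 ± 0.14, and for Cdh2 it was 0.07 ± 0.10, with an interval from -0.17 to 0.32. Without the first decitabine array Cdh11 was at -0.07, and without the second at -0.40. Neither gene passed with the trend (adjusted p = 0.152 and 0.533). The ± values and intervals come from the fit without the trend. With the trend the raw p in limma was 0.00349 for Cdh3, 0.0195 for Cdh11 and 0.0509 for Cdh5. Which intervals leave out 0 therefore depends on the fit.

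Cdh1 was at 0.30 ± 0.13, a 1.23-fold difference, with an interval from -0.03 to 0.64 and an adjusted p of 0.389 in limma. It was at 0.17 without the first decitabine array, at 0.44 without the second, and at 0.14 with the mean of its rows. Cdh1 minus Cdh2 within each array, a measure of the balance of E- and N-cadherin signal, was -5.29 and -5.54 with decitabine, against -5.68 and -5.62 in control. The decitabine arrays were the higher ones, by 0.23 on average, and the two-sided exact permutation p was 0.333, which is the smallest that 2 arrays against 2 can give. On the same arrays the repressors of Cdh1 were measured. Snai2, which encodes the repressor Slug, was at 0.33 ± 0.09 (8.73 with decitabine, 8.40 in control, adjusted p = 0.245 and 0.0160 with the trend). Zeb1 was at -0.32 ± 0.13 (adjusted p = 0.366 and 0.227 with the trend), and the bHLH factor gene Tcf4 at -0.13 ± 0.11 (adjusted p = 0.645 in limma). Of 8 repressor genes measured, 0 passed without the trend. At a raw p below 0.05, 1 was higher and 0 lower, against 7.34% and 6.97% of all genes, and their median was 0.00, as over all genes. The part of these genes in the Cdh1 values was not tested.

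Cdh5 (VE-cadherin) and Cldn5, both used as endothelial markers, were under the olfactory level on all arrays. Cdh5 had 4.10 and 4.11 with decitabine, against 3.85 and 3.50 in control, and a log2 fold change of 0.43 ± 0.14 (limma SE, adjusted p = 0.302 in limma). It was at 0.60 without the first control array and at 0.25 without the second. Cldn5 was at 0.19 ± 0.09 (adjusted p = 0.441 in limma). Of 11 endothelial markers, these genes included, 8 were positive with a median of 0.14, and 0 passed in limma with or without the trend. At a raw p below 0.05, 3 were higher and 0 lower, against 7.34% and 6.97% of all genes. The mean level of the list was 4.62 and 4.66 with decitabine, against 4.54 and 4.44 in control. The receptor genes Kdr and Flt1, at 0.38 ± 0.12 and 0.41 ± 0.15, were the remaining ones of the 3. Of the 11 markers, 4 were above the olfactory level in control, where 59.3% of all genes were. These were Flt1, Esam, Pecam1 and Tie1, and on the decitabine arrays Kdr was above it and Tie1 was not. Pecam1 was at 6.07 with decitabine and 5.99 in control, and Tek and Emcn were under the level on all arrays. The part of the other endothelial markers in the Cdh5 value was not tested.

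**Figure D3:**
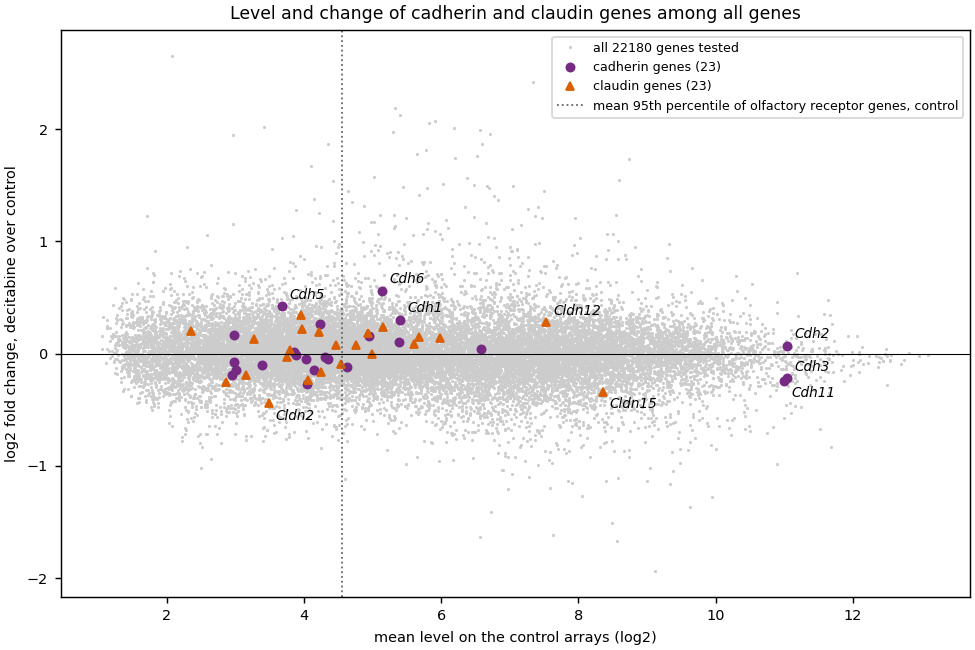
Mean level on the control arrays (log2, horizontal axis) and log2 fold change, decitabine over control (vertical axis), for all 22180 genes tested (grey) with the cadherins and claudins marked, and the mean olfactory level of the control arrays as a dotted line. The members lie between -0.44 and 0.56, inside the cloud of all genes at every level, and Cdh2, Cdh3 and Cdh11 sit together at its bright end.

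By role, the 5 claudins usually described as forming channels (Cldn2, Cldn10, Cldn15, Cldn16 and Cldn17) had a median log2 fold change of -0.23, with 1 positive and 4 negative. The 12 sealing claudins had a median of 0.13, with 9 positive and 3 negative. These counts were the same with quantile normalization and with median-centred arrays, which rescale the same 4 arrays. In the deposited values 11254 of all genes were positive and 10926 negative, with a median of 0.00. Only Cldn15 of the channel group and 5 of the sealing group were above the olfactory level. In limma without the trend 0 claudins of either group passed, so the contrast is a description. Some claudins form seals in one tissue and channels in another. The 5 type I cadherins had a median of 0.07, the 13 type II cadherins one of -0.07 and the 5 others one of -0.03. None of these 3 cadherin groups held a gene called without the trend.

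Of the 28 genes not above the olfactory level on both arrays of either group 11 were positive and 17 negative, with a median of -0.04, and Cdh5 and Cldn2 were the only ones with a raw p below 0.05. The next by size were Cldn4 (0.34 ± 0.15), Cdh26 (0.27 ± 0.11) and Cdh20 (-0.27 ± 0.23). Cldn7, a claudin of epithelia, had the widest gap between replicates, with 3.71 and 3.73 on the decitabine arrays, against 4.23 and 3.28 on the control arrays. Its log2 fold change of -0.03 ± 0.31 is therefore loosely bounded. The 18 genes above the olfactory level had a median of 0.09, with 13 positive and 5 negative, against a median of 0.00 for the 13513 genes above it in either group.

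Several members are direct neighbours among the protein-coding genes of the RefSeq table of assembly GRCm38.p6. There were 12 such adjacent pairs, made of 21 genes. In 6 of them 1 gene was above the olfactory level in control and its neighbour was not. On chromosome 8 Cdh11, at 10.76 with decitabine and 11.002 in control, lies between Cdh8 and Cdh5. Cdh8 averaged 3.29 with decitabine and 3.39 in control, under the olfactory level like Cdh5. Also on chromosome 8, Cdh3 and Cdh1 are neighbours whose log2 fold changes were -0.22 and 0.30. On chromosome 5 Cldn3 and Cldn4 were at 0.14 and 0.34. On chromosome 15 Cdh6, at 0.56, is next to Cdh9, at -0.19, which is followed by Cdh10 and Cdh12. In 8 of the 12 pairs the 2 changes had opposite signs, where 24 of the 46 members were positive and 22 negative. Some genes belong to more than 1 pair. Whether either count differs from that of genes that are not neighbours was not tested.

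Because decitabine lowers DNA methylation, CpG sites were counted in promoters, and those of the members that led the comparison are shown. The arrays measured RNA, so the methylation of these sites in the cells is not known. RefSeq promoter sequences (GRCm38.p6) were matched for 32 of the 46 members, and the 250 bases before 1 annotated start per gene were read. Several starts were annotated for 7 members, among them Cldn12 with 3, and the start nearest the 5′ end of the gene was kept. The members not matched were Cdh1, Cdh2, Cdh3, Cdh4, Cdh5, Cdh11, Cdh13, Cdh16, Cdh17, Cdh19, Cldn8, Cldn9, Cldn13 and Cldn23. Below are the windows of the 4 matched genes with a raw p below 0.05, each 5′ to 3′ on the strand of the gene with CpG sites in capitals. The Cdh6 window is chr15:13173676-13173925 (minus strand), that of Cldn12 chr5:5514977-5515226 (minus strand), that of Cldn15 chr5:136967619-136967868 (plus strand) and that of Cldn2 chrX:139800558-139800807 (plus strand).
Cdh6: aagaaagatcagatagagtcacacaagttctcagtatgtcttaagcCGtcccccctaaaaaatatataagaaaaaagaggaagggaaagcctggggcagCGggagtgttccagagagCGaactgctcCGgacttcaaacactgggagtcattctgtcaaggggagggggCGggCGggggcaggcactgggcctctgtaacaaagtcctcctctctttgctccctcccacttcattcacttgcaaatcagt
Cldn12: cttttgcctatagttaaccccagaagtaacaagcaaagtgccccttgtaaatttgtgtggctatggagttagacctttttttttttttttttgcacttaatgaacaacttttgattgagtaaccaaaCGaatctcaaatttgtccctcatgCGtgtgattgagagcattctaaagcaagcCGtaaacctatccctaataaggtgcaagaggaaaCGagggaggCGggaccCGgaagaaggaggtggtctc
Cldn15: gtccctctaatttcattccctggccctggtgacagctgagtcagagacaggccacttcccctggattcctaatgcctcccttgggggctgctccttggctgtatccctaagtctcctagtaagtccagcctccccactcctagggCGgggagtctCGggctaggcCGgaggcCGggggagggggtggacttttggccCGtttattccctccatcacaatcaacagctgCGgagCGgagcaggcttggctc
Cldn2: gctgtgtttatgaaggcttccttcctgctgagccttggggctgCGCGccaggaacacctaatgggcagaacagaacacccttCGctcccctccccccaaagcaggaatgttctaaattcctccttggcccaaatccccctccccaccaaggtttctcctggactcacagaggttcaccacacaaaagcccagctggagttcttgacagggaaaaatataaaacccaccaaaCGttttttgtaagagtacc

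These windows held 6 CpG sites in Cdh6, 6 in Cldn12, 7 in Cldn15 and 4 in Cldn2, and the median over all 27025 genes with a promoter entry was 6. The ratio of observed CpG sites to the number expected from the C and G content was 0.37 in Cdh6, 0.55 in Cldn12, 0.30 in Cldn15 and 0.25 in Cldn2. All were under 0.6, a usual mark for CpG islands, and the median ratio over all genes with an entry was 0.38. Bases after the start were not read, so these ratios do not show whether a CpG island lies there. Of the 32 matched members, 7 had a ratio over 0.6, or 21.9%, against 34.5% of all genes with an entry. They were Cdh7, Cdh8, Cdh20, Cdh22, Cdh24, Cldn1 and Cldn11. Their median log2 fold change was 0.04, with 4 positive and 3 negative, and that of the other 25 was 0.08, with 14 positive and 11 negative. Across the 32 genes Spearman's rho was 0.08 between the ratio and the log2 fold change and 0.14 between the ratio and the control level, on the same 4 arrays. The changes of the 7 lay from -0.27 to 0.23, inside the range of the other 25, from -0.44 to 0.56. The E-box CACCTG, read on both strands (as CACCTG or CAGGTG) and bound by Snail and ZEB proteins, occurred in 3 of the 32 windows, those of Cdh7, Cldn4 and Cldn6, or 9.38%, against 17.1% of all genes with an entry.

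**Figure D4:**
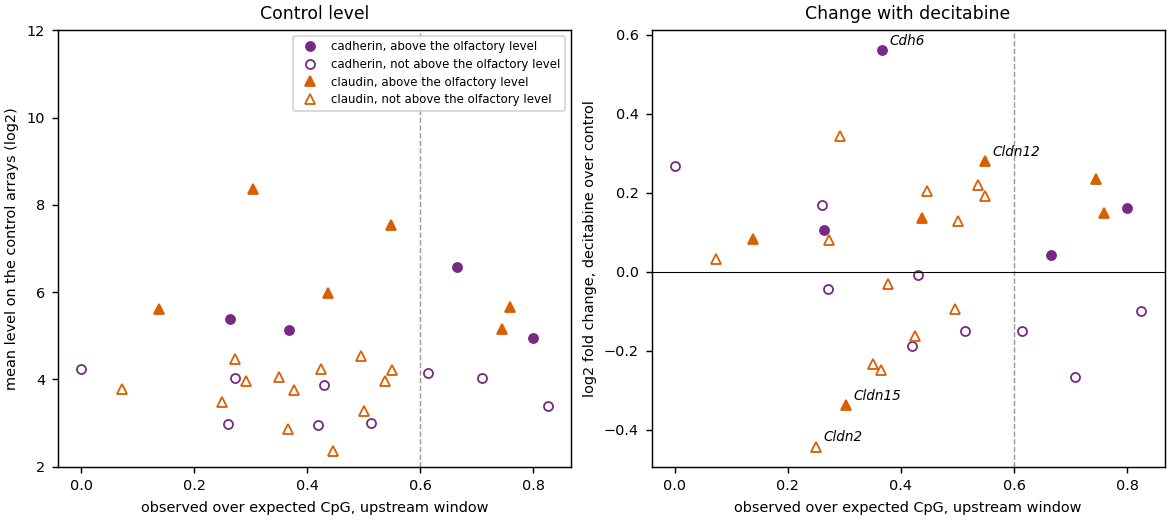
Ratio of observed to expected CpG sites in the 250 bases before the start (horizontal axis) against the mean control level (log2, left) and the log2 fold change, decitabine over control (right), for the 32 members with a promoter entry. The dashed line marks a ratio of 0.6, and the 7 genes to its right have changes from -0.27 to 0.23.

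Junction partners were measured on the same arrays. In the lists that follow, counts at a raw p below 0.05 stand against 7.34% of all genes higher and 6.97% lower, and counts with the trend against 3.68% higher and 3.60% lower. Of 14 adherens junction partners, whose median was 0.03, 0 passed without the trend. At a raw p below 0.05, 2 were higher and 0 lower, and both were called with the trend. The 2 were Afdn, a scaffold of nectins (0.34 ± 0.11, adjusted p = 0.266, and 0.0255 with the trend), and vinculin (Vcl, 0.34 ± 0.11, adjusted p = 0.289, and 0.00990 with the trend), which ties junctions to actin. The catenin-like gene Ctnnal1 was at -0.32 ± 0.13 (adjusted p = 0.359 in limma). Of 19 tight junction partners, likewise with a median of 0.03, 0 passed without the trend. At a raw p below 0.05, 3 were higher and 2 lower. F11r, the junctional adhesion molecule JAM-A, was at -0.45 ± 0.10, with 10.58 with decitabine and 11.03 in control (adjusted p = 0.192, and 8.80e-04 with the trend). The cingulin-like gene Cgnl1 was at 0.40 ± 0.10 and the polarity kinase gene Prkci at 0.31 ± 0.11 (adjusted p = 0.209 and 0.314 in limma, and 0.0178 and 0.0256 with the trend). With the trend 3 tight junction partners were higher and 1 lower.

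Desmosomes carry their own cadherins, and 0 of 14 desmosome genes, whose median was -0.01, passed without the trend. At a raw p below 0.05, 3 were higher and 2 lower. The desmocollin gene Dsc2 was at -0.55 ± 0.13 and the desmoglein gene Dsg2 at -0.30 ± 0.10, and both were called lower with the trend (adjusted p = 0.0456 and 0.0104). Dsg1c was at 0.42 ± 0.14 and had levels of 2.48 with decitabine and 2.06 in control, at the dim end of the arrays. Of 12 epithelial transcription factors and splicing regulators, 0 passed without the trend and 2 were called higher with it. These were the Krüppel-like factor genes Klf4, at 1.06 ± 0.12 (6.65 with decitabine, 5.59 in control), and Klf5, at 0.86 ± 0.10 (7.98 with decitabine, 7.12 in control), both with an adjusted p of 0.0762 in limma without the trend. Elf3 was at 0.26 ± 0.12 (adjusted p = 0.408 in limma). The list's median was 0.04.

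Of the cell type markers measured on the same arrays, 0 passed without the trend. Of the 15 epithelial markers, whose median was 0.16, 5 were called higher and 1 lower with the trend. The keratin genes Krt14, at 0.79 ± 0.10, Krt17, at 0.95 ± 0.27, and Krt8, at 0.53 ± 0.13, had the smallest p-values of the list (adjusted p = 0.0908, 0.239 and 0.210 in limma). The protease inhibitor gene Spint2, at -0.53 ± 0.19, was the one called lower. Of 10 ovarian surface and mesothelial markers, whose median was -0.01, 3 were called higher and 3 lower with the trend. The uroplakin gene Upk1b was at 0.85 ± 0.10 and the mesothelin gene Msln at 0.86 ± 0.10 (both adjusted p = 0.0762 in limma). Lrrn4 was at -0.64 ± 0.10 (adjusted p = 0.123 in limma), and Wt1 and Upk3b were the remaining genes called lower.

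Of 13 mesenchymal markers, whose median was 0.07, 7 were positive and 6 negative, and 4 were called higher and 1 lower with the trend. Thy1, a surface protein of fibroblasts, was at 1.48 ± 0.17, with 6.92 with decitabine and 5.44 in control (adjusted p = 0.0762 in limma). The smooth muscle actin gene Acta2 was at 0.72 ± 0.10 and the fibronectin gene Fn1 at 0.48 ± 0.10 (adjusted p = 0.106 and 0.163 in limma). Pdgfra, at -0.28 ± 0.10 (adjusted p = 0.315 in limma, and 0.00976 with the trend), was the one called lower. Of 11 leukocyte markers, whose median was 0.20, 2 were above the olfactory level in control, where 59.3% of all genes were, and 1 was called higher with the trend. That gene was the macrophage marker Cd68, at 0.45 ± 0.10 (adjusted p = 0.186 in limma). At a raw p below 0.05, 2 leukocyte markers were higher and 0 lower, the other being Itgam, at 0.50 ± 0.11. Of the list 9 were positive and 2 negative. The negative ones were Adgre1, at -0.08 ± 0.21, and Lyz2, at -0.07 ± 0.28. Itgam, Adgre1 and Lyz2 were above the olfactory level in neither group. The part of these genes in the members' values was not tested.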

How the data were processed

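Total RNA, labelled with biotin per the labels' protocols, was measured on 1 Affymetrix Mouse Gene 2.0 ST array per sample. The deposited table holds 1 value per row and array, read as log2 expression from its range (0.55 to 13.26). Log base, summarisation and normalization are not given in the sources used here. With 2 arrays in each group, the precision of the comparison is limited. The platform annotation gave 1 symbol for 23521 of the 41345 rows, several for 1814 and none here for 16010. Rows with 1 symbol gave 22180 genes, of which 1082 had several rows and kept the one with the highest mean. The 46 members had 50 rows. Their Entrez identifiers all matched the RefSeq table (GRCm38.p6).

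The test was two-sided limma (version 3.58.1, R 4.3.3, no intensity trend), with group alone in the model and p-values adjusted by Benjamini-Hochberg over all genes. The fit was tested on simulated data in which the spread did not depend on level. A spread that changes with level was not simulated. Groups and replicate numbers come from the titles. Same-numbered arrays did not deviate together across genes (r = -0.02). Members were named where both arrays of a group lay above the olfactory level or the raw p was below 0.05, and of each list of junction partners, desmosome genes, repressors and activators the 3 smallest p-values. Cell type markers and other genes were named after their values were seen. Members, roles and lists were chosen with earlier results of these data known. Plots used matplotlib 3.10.9 (Python 3.11.15). Alternatives were quantile normalization, median centring, filters on level, the trend, a replicate block, robust eBayes, other handling of rows and leaving out each array.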

Additional observations from a re-analysis of the deposited data

How the results depend on the processing

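The count of 0 members past the threshold became 3 with the intensity trend and 1 (Cdh6) with genes under the median level left out, and was 0 under each other alternative, including each array left out. For Cdh6 the smallest adjusted p elsewhere was 0.0606, with genes under the 25th percentile left out. The count over all genes, 32, became 1615 with the trend, 1251 above the median level, 215 above the 25th percentile, 51 with centred arrays, 18 with robust eBayes, and 0 with all rows fitted or with any array left out. With the replicate number as a block it was 0, and Cdh6 had an adjusted p of 0.264; the block changed no call of a member. Why these counts differ was not tested. The count of 18 members above the olfactory level became 9 at the 99th percentile, 23 with vomeronasal receptor genes, 20 without control replicate 2 and 16 with the mean of a gene's rows. Of 252 alternative values of 20 named members, 240 kept their direction and their side of the threshold, 4 passed it and 8 changed sign. Those 8 belong to Cdh4, at 0.073 with the mean of its 2 rows, and to genes near 0, which ranged over the arrays left out from -0.020 to 0.11 (Cdh24), -0.13 to 0.12 (Cldn13), -0.028 to 0.18 (Cldn9) and -0.015 to 0.37 (Cldn23). Over the arrays left out, Cdh15 ranged from 0.04 to 0.17, Cdh22 from 0.07 to 0.25, Cldn1 from 0.11 to 0.36, Cldn3 from 0.05 to 0.22, Cldn11 from 0.01 to 0.29 and Cldn19 from 0.02 to 0.15. Without signal from scanner files, no detection limit could be set for dim genes.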
